A study of Mus musculus with 4 samples.

Results

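Isg15, the gene of a ubiquitin-like protein, was followed together with the enzymes that attach its product to other proteins and remove it, through every cell class of leukemic mice whose leukemia cells carried a hairpin against Prmt9 or a control hairpin. The 5 genes, Isg15, Uba7, Ube2l6, Herc6 and Usp18, were chosen by name out of the 32285 genes of the matrices, and all 5 were present in all 4 matrices. Their unique molecular identifiers (UMIs, 1 per captured transcript) were summed over the cells of each marker-gated class in each library. The rule itself uses no measured value, but the genes were chosen with earlier results of these data known.

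The mice were wild-type C57BL/6J hosts, 6 to 8 weeks old, that had received MA9 cells, which are mouse hematopoietic cells transformed by the MLL-AF9 fusion. The transplanted cells carried a doxycycline (DOX)-inducible hairpin, and all mice drank DOX for 7 days, so that the Ctrl and shPrmt9 (Prmt9 KD) groups shared the transplant and the DOX and differed in the hairpin. Bone marrow and spleen of each group were profiled by 10x 3′ single-cell RNA sequencing, which gave 4 libraries: BM-Ctrl and BM-shPrmt9 from marrow, Spleen-Ctrl and Spleen-shPrmt9 from spleen. The paper describes 1 representative mouse per group as the source of both tissues, and only the transplanted leukemia cells carried the hairpin. With 1 library per group there is no replicate: no test between conditions was possible, differences between mice and effects of the hairpin cannot be told apart, and the 95% intervals given below cover counting error only.

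ISG15 is made as a precursor and is joined to lysines of target proteins in a cascade parallel to that of ubiquitin. UBA7 is the activating enzyme (E1), UBE2L6 the conjugating enzyme (E2), HERC6 the main ligase (E3) in mouse, and USP18 the protease that removes ISG15 again and also dampens signaling from the type I interferon receptor. All 5 genes are known interferon-stimulated genes, and ISG15 is also released from cells and acts on lymphocytes through the integrin LFA-1.

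The genes lie on 4 chromosomes of the mouse genome (GRCm38, the assembly also called mm10). Isg15 (ENSMUSG00000035692) occupies chr4:156199424-156200818 on the minus strand, and on the plus strand lie Uba7 (ENSMUSG00000032596) at chr9:107975505-107984060, Ube2l6 (ENSMUSG00000027078) at chr2:84798828-84810335, Herc6 (ENSMUSG00000029798) at chr6:57581000-57664632 and Usp18 (ENSMUSG00000030107) at chr6:121245906-121270917. Uba7 overlaps the same-strand gene Gm20661, and Herc6 overlaps the same-strand transcript Gm45193, so UMIs in those stretches could have been divided between annotations. RefSeq promoter windows (250 bases before to 50 after the start site, GRCm38.p6) were matched for 4 of the 5 genes, all but Usp18. The 250 bases before the start are shown for Isg15, the only window of the 4 with the interferon-response letters GAAANNGAAA, and for Herc6, which had none of the motifs searched although its level differed in almost every class. Capitals mark AANNGAAA, a shorter form contained in GAAANNGAAA, read on either strand. The Isg15 stretch is chr4:156200819-156201068 (minus strand) and the Herc6 stretch chr6:57580742-57580991 (plus strand), both printed 5′ to 3′ in the direction of the gene.
Isg15: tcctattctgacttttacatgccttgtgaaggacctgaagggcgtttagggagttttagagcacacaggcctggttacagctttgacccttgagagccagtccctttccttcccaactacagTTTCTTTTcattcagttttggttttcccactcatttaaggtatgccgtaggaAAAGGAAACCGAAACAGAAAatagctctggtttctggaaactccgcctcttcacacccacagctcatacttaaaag
Herc6: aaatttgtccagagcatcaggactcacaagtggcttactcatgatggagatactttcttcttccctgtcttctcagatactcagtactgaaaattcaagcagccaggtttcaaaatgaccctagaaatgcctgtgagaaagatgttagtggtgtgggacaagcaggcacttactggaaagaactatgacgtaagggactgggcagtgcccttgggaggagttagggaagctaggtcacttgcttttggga
In the Isg15 window GAAANNGAAA occurred 3 times in a row, as GAAAAGGAAA, GAAACCGAAA and GAAACAGAAA, with first bases at -78, -72 and -66 from the start. Among all promoter windows of the table, 3.44% (1131 of 32851) held these letters at least 1 time on either strand. The shorter AANNGAAA was also present in the Uba7 window, as TTTCACTT at -27 (reverse strand), and in 23.9% of all windows. TTCNNNGAA, the letters of the gamma-activated site, was in none of the 4 windows and in 8.30% of all. These matches describe letters only.

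The libraries held 8648 to 11315 cell barcodes and 84009744 to 188030429 UMIs, and 7507 to 10163 cells per library were used after filters. Prmt9, the targeted gene, was lower in MA9-gated cells of the shPrmt9 libraries. It stood at 6.22 against 11.3 CPM (counts of a gene per 1000000 UMIs of the class) in marrow. In spleen it stood at 3.80 (9 UMIs) against 19.0 (24 UMIs). Over whole libraries Prmt9 was lower too, at 6.92 against 10.51 CPM in marrow and 7.03 (679 UMIs) against 13.03 (962 UMIs) in spleen. The splenic difference thus lay mostly in cells outside the MA9 gate. Whether the lower level in MA9-gated cells came from the hairpin was not tested. Cells were gated by markers, and 14 classes with at least 20 cells in both groups were compared, 8 in marrow and 6 in spleen. Some gates took cells of different clusters in the 2 groups. Neutrophil progenitors of BM-Ctrl lay mostly in the cluster of MA9-gated cells (37.0%) and in the basophil cluster (32.4%). Of the BM-shPrmt9 progenitors, 38.8% (57 cells) lay in another cluster, named after this class. That cluster took 223 cells from the same library, so most of these lay outside the gate. It also took splenic cells, 68 under the control hairpin and 122 under shPrmt9. Median depths of the gated progenitors were 36718 UMIs in BM-Ctrl and 5997 in BM-shPrmt9. Marrow MA9-gated cells lay in 2 clusters in Ctrl (66.3% and 30.5%) and in 2 others in shPrmt9 (55.4% and 42.1%). The leading cluster also differed between the groups for marrow neutrophils (44.9% and 36.4% of the gate), splenic B cells (71.5% and 49.3%), splenic T cells (46.6% and 50.3%), marrow B cells (37.1% and 49.5%), splenic MA9-gated cells (59.3% and 90.2%) and splenic erythroid cells (55.6% and 54.1%), so the ratios of these classes compare partly different clusters. MA9-gated cells also scored on the progenitor markers (median score 0.319 against 0.298 on their own markers in BM-Ctrl, and 0.499 against 0.380 in BM-shPrmt9), so these 2 gates do not separate leukemia cells from normal progenitors. The marrow and spleen hosts differed in sex (Y-linked transcripts gave 0 and 1 UMIs in the 2 marrow libraries and 218 and 151 CPM in spleen). Marrow and spleen are thus not from the same mice, which differs from the paper's description of 1 mouse per group. Pairs of libraries shared 15 to 35 barcodes.

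Isg15 was higher in the shPrmt9 library in all 14 compared classes. The whole-library level was 63.7 CPM in BM-Ctrl, 461.8 in BM-shPrmt9, 92.7 in Spleen-Ctrl and 1745 in Spleen-shPrmt9. These are ratios of 7.25 (95% interval 7.10–7.41) in marrow and 18.8 (18.4–19.3) in spleen. By class, the ratio ran from 4.14 in marrow neutrophils to 16.3 in splenic NK cells, and every interval lay above 2. The whole-library ratio of spleen exceeded that of each splenic class, and the makeup of the libraries differed between the groups too.

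Erythroid cells, gated by globin and other red cell genes, held the highest Isg15 level of the classes with at least 20 cells in every library. Their level was 990.4 CPM (959–1023) in BM-Ctrl, 5588 (5532–5644) in BM-shPrmt9, 858 (817–900) in Spleen-Ctrl and 5334 (5301–5367) in Spleen-shPrmt9. The next class with at least 20 cells was neutrophils at 118 in BM-Ctrl and 168 in Spleen-Ctrl, and monocyte/macrophages at 598 in BM-shPrmt9 and 2062 in Spleen-shPrmt9. No interval of another class with at least 20 cells reached that of erythroid cells in its library. Globin nevertheless made up 69.7%, 59.9%, 80.6% and 85.9% of erythroid UMIs in that order of libraries. The erythroid label was borne out by 12 of its 13 markers in marrow, each with a UMI in at least 10% of the gated cells, and by 10 or 11 in spleen.

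Among the remaining classes with at least 20 cells, the order in BM-Ctrl began with neutrophils (118), monocyte/macrophages (116) and plasmacytoid dendritic cells (114), which overlapped within counting error. It went on through T cells (47.4), neutrophil progenitors (30.9), basophils (28.3) and B cells (19.7) to MA9-gated cells (14.9) and NK cells (8.41). In BM-shPrmt9, monocyte/macrophages (598) and T cells (545) overlapped, neutrophils stood at 490.1, B cells at 219.8 and basophils at 185.3, and MA9-gated cells were lowest of the classes with at least 20 cells at 93.7. In Spleen-Ctrl, neutrophils (168) and T cells (167) overlapped, above MA9-gated cells (84.6), B cells (30.7) and NK cells (12.96). In Spleen-shPrmt9 the order was monocyte/macrophages (2062, 31 cells), T cells (1312), MA9-gated cells (956), neutrophils (705), B cells (427), plasma cells (297, 33 cells) and NK cells (211). NK cells were thus lowest of the compared classes in spleen in both groups. T cells stood above B cells in all 4 libraries.

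The Isg15 ratios differed between classes. In marrow they were 11.5 (9.25–14.5) in T cells, 11.1 (8.94–13.95) in B cells, 6.54 (4.31–10.4) in basophils, 6.31 (5.93–6.71) in MA9-gated cells, 5.64 (5.45–5.84) in erythroid cells, 5.16 (4.75–5.62) in monocyte/macrophages, 4.52 (3.69–5.57) in neutrophil progenitors and 4.14 (3.97–4.32) in neutrophils. In spleen they were 16.3 (9.67–29.6) in NK cells, 13.9 (13.2–14.7) in B cells, 11.3 (9.31–13.9) in MA9-gated cells, 7.88 (7.58–8.19) in T cells, 6.22 (5.93–6.53) in erythroid cells and 4.19 (3.25–5.51) in neutrophils. The order was not stable over the settings tried. Splenic NK cells gave 7.90 with doublets kept, and B cells gave 61.6 in marrow and 48.5 in spleen with the lowest class of at least 5 cells taken off as free RNA. Neutrophil progenitors ranged from 3.37 to 16.5 over the alternatives other than taking off the lowest class of at least 20 cells (0.0785), and with TMM factors marrow erythroid cells (3.58) lay below marrow neutrophils (5.17). In the small classes some Isg15 rested on few cells: 1 cell held 52.7% (68 UMIs) of the Isg15 in neutrophil progenitors of BM-Ctrl and another 29.0% of that in MA9-gated cells of Spleen-Ctrl. Without the highest cell of each library these ratios were 9.16 and 14.6.

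**Figure D1:**
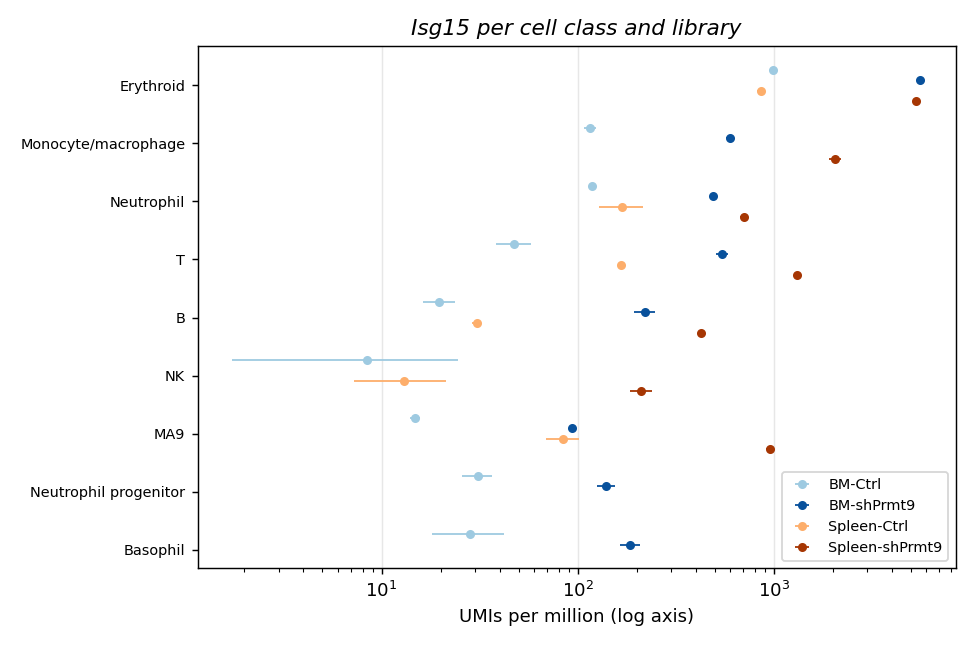
Isg15 in CPM (log axis) for cell classes with at least 20 cells, with 1 point per library and exact Poisson 95% bars that cover counting error only. Plasmacytoid dendritic cells, megakaryocytes and plasma cells are not drawn. The erythroid points of both shPrmt9 libraries lie at 5588 and 5334, to the right of all others, and within each class the shPrmt9 point lies to the right of the Ctrl point of its tissue.

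Erythroid cells supplied a larger part of all Isg15 UMIs than of the cells. They were 7.16% of the used cells of BM-Ctrl and gave 38.5% of its Isg15 UMIs. In BM-shPrmt9 they were 11.1% of the cells and gave 48.3% of the UMIs, in Spleen-Ctrl 2.04% and 24.7%, and in Spleen-shPrmt9 21.4% and 60.5%. The part from splenic T cells went from 41.3% in Spleen-Ctrl to 18.8% in Spleen-shPrmt9, although T cells were 23.4% and 33.4% of the cells. Splenic B cells were 67.9% of the cells in Spleen-Ctrl and gave 21.0% of the UMIs, and 17.8% and 6.61% in Spleen-shPrmt9. A level measured over a whole spleen library was therefore mostly an erythroid level in the shPrmt9 group.

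**Figure D2:**
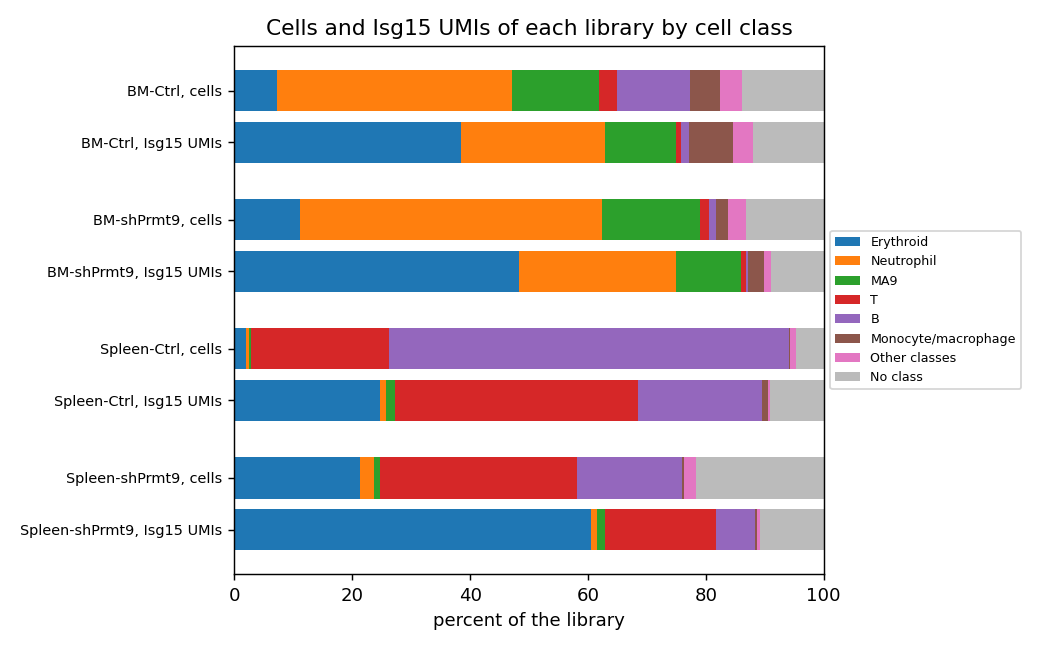
Share of each library's used cells (upper bar of each pair) and of its Isg15 UMIs (lower bar) by cell class, in percent. Erythroid cells hold 60.5% of the Isg15 UMIs in Spleen-shPrmt9 from 21.4% of the cells.

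Within the erythroid gate of the shPrmt9 libraries, Isg15 was spread more evenly over the cells in marrow than in spleen. The median marrow erythroid cell held 1 Isg15 UMI in BM-Ctrl and 18 in BM-shPrmt9, and the median splenic one 3 in Spleen-Ctrl and 9 in Spleen-shPrmt9. The highest cell held 151, 332, 242 and 1107 UMIs in that order of libraries. The 10% of erythroid cells with the most Isg15 held 61.9% of the UMIs in BM-Ctrl and 40.5% in BM-shPrmt9, and 53.1% in Spleen-Ctrl and 57.0% in Spleen-shPrmt9. After every cell was thinned to 2000 UMIs, to set depth aside, 48.2% of marrow erythroid cells held an Isg15 UMI in the Ctrl group and 88.2% in the shPrmt9 group (125 and 306 shallower cells left out). In spleen it was 54.6% and 60.4% (17 and 185 left out), against 82.2% and 85.1% unthinned. The splenic CPM level thus differed 6.22-fold while the share of cells with a UMI was much the same. Thinning does not even out globin, which made up 69.7% and 59.9% of erythroid UMIs in marrow and 80.6% and 85.9% in spleen. The thinned cells of the Ctrl and shPrmt9 groups thus kept different numbers of other UMIs.

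Dividing the erythroid gate at a globin share of 50% gave cells with moderate and with high globin content. In the globin-moderate cells Isg15 stood at 772, 5687, 2306 (21 cells) and 22975 CPM in Ctrl and shPrmt9 marrow and Ctrl and shPrmt9 spleen, respectively. Of the 353 Isg15 UMIs behind the Spleen-Ctrl value, 242 (68.6%) came from 1 cell. In the globin-rich cells it stood at 1022, 5551, 736 and 4783. With globin left out of the total, which removes the dilution by the most abundant transcripts, the erythroid ratio was 4.26 (4.12–4.41) in marrow and 8.56 (8.16–8.99) in spleen, where the median ratio over all genes tested was 1.27 and 0.731. With TMM factors it was 3.58 in marrow and 13.9 in spleen. Isg15 was higher in shPrmt9 on either scale in both globin strata.

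In the other classes the share of cells with an Isg15 UMI differed along with the level. After thinning, T cells with a UMI were 7.55% and 53.1% in Ctrl and shPrmt9 marrow, and 26.8% and 85.5% in spleen. For B cells the shares were 4.04% and 25.0% in marrow and 5.30% and 47.1% in spleen, for marrow neutrophils 14.8% and 51.5%, and for marrow MA9-gated cells 3.36% and 17.5%. Unthinned, the shares were 24.1% and 84.0% for marrow T cells, 56.8% and 96.5% for splenic T cells, and 41.4% and 85.6% for marrow MA9-gated cells, which were much deeper (medians of 57796 and 52026 UMIs per cell). No gated class is known to lack Isg15, so the NK class, lowest in spleen, is the nearest to a background, and its thinned shares there were 3.90% and 28.2%.

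In CD8 T and CD4 T cells Isg15 was higher in the shPrmt9 libraries of both tissues. In spleen, Isg15 stood at 143 in Spleen-Ctrl and 1242 in Spleen-shPrmt9 in CD8 T cells and at 177 and 1303 in CD4 T cells. In marrow, CD8 T cells stood at 44.9 and 550.3, and the 24 and 15 CD4 T cells at 86.3 and 886.

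RNA released by other cells adds UMIs to every droplet, and 3 measures of it stand beside these levels. The lowest class with at least 20 cells held 0.0909 Isg15 UMIs per cell in BM-Ctrl (NK), 2.48 in BM-shPrmt9 (B), 0.195 in Spleen-Ctrl (NK) and 2.16 in Spleen-shPrmt9 (NK). Each gene's own lowest class was then taken off as if all of it were free RNA. The number of pairs of a member and a class at least 2-fold higher dropped in marrow from 32 to 17 and in spleen from 21 to 15. Of the 53 pairs, 5 no longer had a value. In BM-shPrmt9 smaller classes held less Isg15, at 0.75 UMIs per cell in 8 NK cells and 0.333 in 6 plasma cells. With each gene's lowest class of at least 5 cells taken off (an alternative chosen after seeing the data) the marrow count was 31. Globin and S100a8/S100a9 UMIs, taken as marks of erythroid cells and neutrophils, gave the third measure, also chosen after seeing the data. At the ratio of Isg15 to those transcripts in their own class, they would carry between 0.00716% and 43.6% (median 3.13%) of a compared class's Isg15. The largest values were in marrow MA9-gated cells and neutrophil progenitors of BM-shPrmt9. S100a8 and S100a9 together stood at 20587 CPM in MA9-gated cells of BM-shPrmt9 and 5092 in its T cells. Any of these transcripts that a class makes itself is counted as carried, so the amount can be too large. With that amount taken off, the Isg15 ratio of marrow MA9-gated cells was 4.74 in place of 6.31 (5.93–6.71), and that of splenic T cells 7.79 in place of 7.88 (7.58–8.19).

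The activating enzyme Uba7 differed from Isg15 in the compared classes: it was at least 2-fold higher in shPrmt9 in 5 of the 13 classes with enough UMIs, 4 of them in marrow. Over whole libraries it stood at 28.1 CPM in BM-Ctrl, 35.6 in BM-shPrmt9, 27.7 in Spleen-Ctrl and 27.6 in Spleen-shPrmt9, and the ratio in spleen was 0.996 (0.94–1.056). In MA9-gated cells its marrow levels were 34.97 (Ctrl) and 29.2 (shPrmt9), a ratio of 0.834 (0.79–0.88), and 37.9 and 45.6 in spleen (1.20, 0.85–1.73). The marrow MA9 ratio was the only one of all member and class pairs whose interval lay below 1. In T cells Uba7 stood at 13.9 and 30.1 in marrow and 30.7 and 32.1 in spleen, and in B cells at 17.4 and 23.2 in marrow and 27.4 and 25.3 in spleen. The splenic T cell ratio was 1.04 (0.93–1.17) and the splenic B cell ratio 0.924 (0.84–1.02), so counting error left room for a difference of at most 1.17-fold up in T cells.

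Uba7 was at least 2-fold higher in 4 marrow classes, of which T cells had a ratio of 2.16 (1.29–3.67). Neutrophils held 12.3 in BM-Ctrl and 28.7 in BM-shPrmt9 (2.33, 2.03–2.68), and monocyte/macrophages 16.2 and 35.7 (2.21, 1.69–2.88). Erythroid cells held 19.5 and 98.1 in marrow (5.04, 3.95–6.50) and 7.61 and 23.1 in spleen (3.03, 1.82–5.47). With globin left out of the total, the erythroid Uba7 ratio was 3.81 (2.99–4.92) in marrow and 4.18 (2.51–7.53) in spleen. The highest Uba7 level of any class with 20 or more cells was in the 37 megakaryocytes of BM-shPrmt9, at 214. The 15 megakaryocytes of BM-Ctrl held 204. Basophils (47.2 and 65.5 in marrow) followed erythroid cells in BM-shPrmt9 and were highest in BM-Ctrl, where their interval overlapped that of MA9-gated cells.

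The conjugating enzyme Ube2l6 was above all an erythroid transcript in these libraries. It stood at 969 CPM in erythroid cells of BM-Ctrl, 1359 in BM-shPrmt9, 815 in Spleen-Ctrl and 801 in Spleen-shPrmt9. The next class with at least 20 cells held 45.2 (plasmacytoid dendritic cells), 132 (megakaryocytes), 49.6 (neutrophils) and 182 (monocyte/macrophages), respectively. In the Ctrl libraries erythroid Ube2l6 was thus about as abundant as erythroid Isg15, at 969 against 990.4 in marrow and 815 against 858 in spleen. UMIs of 3′ libraries carry no factor of gene length, although capture can differ between transcripts.

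The ratio of erythroid Ube2l6 between the groups depended on the scaling. It was 1.40 (1.35–1.46) in marrow and 0.982 (0.93–1.03) in spleen, and with globin left out of the total it was 1.06 (1.02–1.10) in marrow and 1.35 (1.28–1.42) in spleen. With TMM factors it was 0.890 in marrow and 2.20 in spleen. Split by globin share, the marrow ratio without globin was 1.54 (1.37–1.75) for globin-moderate and 1.31 (1.26–1.37) for globin-rich cells, both above the pooled 1.06. The splenic strata gave 1.19 (0.97–1.47) and 1.24 (1.17–1.31), both below the pooled 1.35. Globin-moderate cells numbered 163 against 474 globin-rich ones under the control hairpin in marrow, and 480 against 653 under shPrmt9. The pooled marrow ratio thus compares different mixes of the strata. The share of erythroid cells with a Ube2l6 UMI after thinning was 76.4% and 81.0% in marrow and 76.3% and 74.2% in spleen. Its median was 4 and 5 UMIs per cell in marrow and 8 and 9 in spleen, against 1 and 18 and 3 and 9 for Isg15. The share of cells with Ube2l6 and its median per cell thus differed less between the groups in marrow than those of Isg15.

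Outside erythroid cells, Ube2l6 was higher in shPrmt9 in the myeloid classes and not at least 2-fold apart in T and B cells. Marrow neutrophils held 28.0 in BM-Ctrl and 93.5 in BM-shPrmt9 (3.34, 3.06–3.66), monocyte/macrophages 34.9 and 123 (3.52, 2.996–4.16), and MA9-gated cells 7.505 and 24.7 (3.29, 3.01–3.61). In spleen, neutrophils held 49.6 and 147 (2.97, 1.85–5.07) and MA9-gated cells 37.1 and 96.3 (2.59, 1.89–3.63). B cells held 30.2 and 45.6 in marrow (1.51, 1.10–2.05) and 22.7 and 24.2 in spleen (1.07, 0.97–1.18), and T cells 6.69 and 11.6 in marrow (1.73, 0.77–3.94) and 11.4 and 17.8 in spleen (1.55, 1.31–1.85). Splenic MA9-gated cells also held S100a8 and S100a9 at 26252 CPM in Spleen-Ctrl and 92672 in Spleen-shPrmt9. With the Ube2l6 that goes with these and with globin in their own classes taken off, the splenic MA9 ratio was 1.62. Whether the MA9-gated cells made S100a8 and S100a9 themselves was not tested.

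The ligase Herc6 was at least 2-fold higher in shPrmt9 in 13 of the 14 classes. Its whole-library level was 11.6 CPM in BM-Ctrl, 48.3 in BM-shPrmt9, 29.2 in Spleen-Ctrl and 134 in Spleen-shPrmt9. T cells held 30.9, 136, 55.7 and 244 in that order. With monocyte/macrophages (239) they were the highest of the classes of Spleen-shPrmt9 with at least 20 cells. The T cell ratios were close in the 2 tissues, at 4.39 (3.26–5.99) in marrow and 4.38 (4.09–4.70) in spleen. Erythroid cells held 37.6, 291, 18.3 and 91.9, ratios of 7.75 (6.53–9.26) and 5.04 (3.62–7.21), which became 5.85 and 6.93 with globin left out of the total and 4.91 and 11.3 with TMM factors. The splenic one was 16.1 with the lowest class of at least 5 cells taken off. B cells held 14.6 and 53.9 in marrow (3.70, 2.64–5.15) and 19.4 and 89.1 in spleen (4.59, 4.25–4.96). In neutrophils the ratio was 4.54 (3.98–5.19) in marrow and 2.66 (1.68–4.47) in spleen, and in MA9-gated cells 2.94 (2.69–3.23) and 3.49 (2.40–5.24). The class in which Herc6 was not 2-fold apart was basophils, at 30.7 in BM-Ctrl and 37.4 in BM-shPrmt9 (1.22, 0.76–2.01).

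Usp18, the deconjugating protease, was at least 2-fold higher in shPrmt9 in all 14 classes, from 3.10 to 33.8 times. Its whole-library level was 5.72 CPM in BM-Ctrl, 40.4 in BM-shPrmt9, 20.03 in Spleen-Ctrl and 105 in Spleen-shPrmt9. In MA9-gated cells its marrow levels were 1.35 (Ctrl) and 12.4 (shPrmt9) (ratio 9.21, 7.53–11.4), and 5.53 and 90.4 in spleen (16.3, 7.79–41.1). Over the alternatives, apart from taking off the lowest class of at least 20 cells, they ran from 6.71 to 10.7 and from 8.12 to 26.2. The largest Usp18 ratio, in marrow basophils, rests on 1 UMI in BM-Ctrl against 64 in BM-shPrmt9 (33.8, 5.86–1357).

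T cells held more Usp18 than most classes in both Ctrl libraries. T cells stood at 29.3 in BM-Ctrl and 90.9 in BM-shPrmt9 (3.10, 2.24–4.33), and at 46.9 and 177 in spleen (3.77, 3.49–4.07). B cells stood at 6.80 and 43.1 in marrow (6.35, 4.13–9.80) and 11.1 and 73.6 in spleen (6.62, 6.01–7.31). Erythroid cells stood at 17.1 and 269.5 in marrow (15.8, 12.3–20.6) and 11.7 and 99.7 in spleen (8.55, 5.68–13.5). With globin left out of the total, the erythroid Usp18 ratio was 11.9 (9.30–15.6) in marrow and 11.8 (7.82–18.6) in spleen. Neutrophils stood at 10.6 and 60.2 in marrow (5.70, 4.95–6.59) and 8.27 (3 UMIs) and 93.2 in spleen (11.3, 3.81–55.1). After thinning, a Usp18 UMI was found in 2.73% and 29.1% of marrow erythroid cells and in 10.9% and 27.6% of splenic T cells. The 87 plasmacytoid dendritic cells of BM-Ctrl, a cell known as a source of type I interferon, held 46.3, the highest level among the classes of that library with at least 20 cells, with an interval that overlapped that of T cells.

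**Figure D3:**
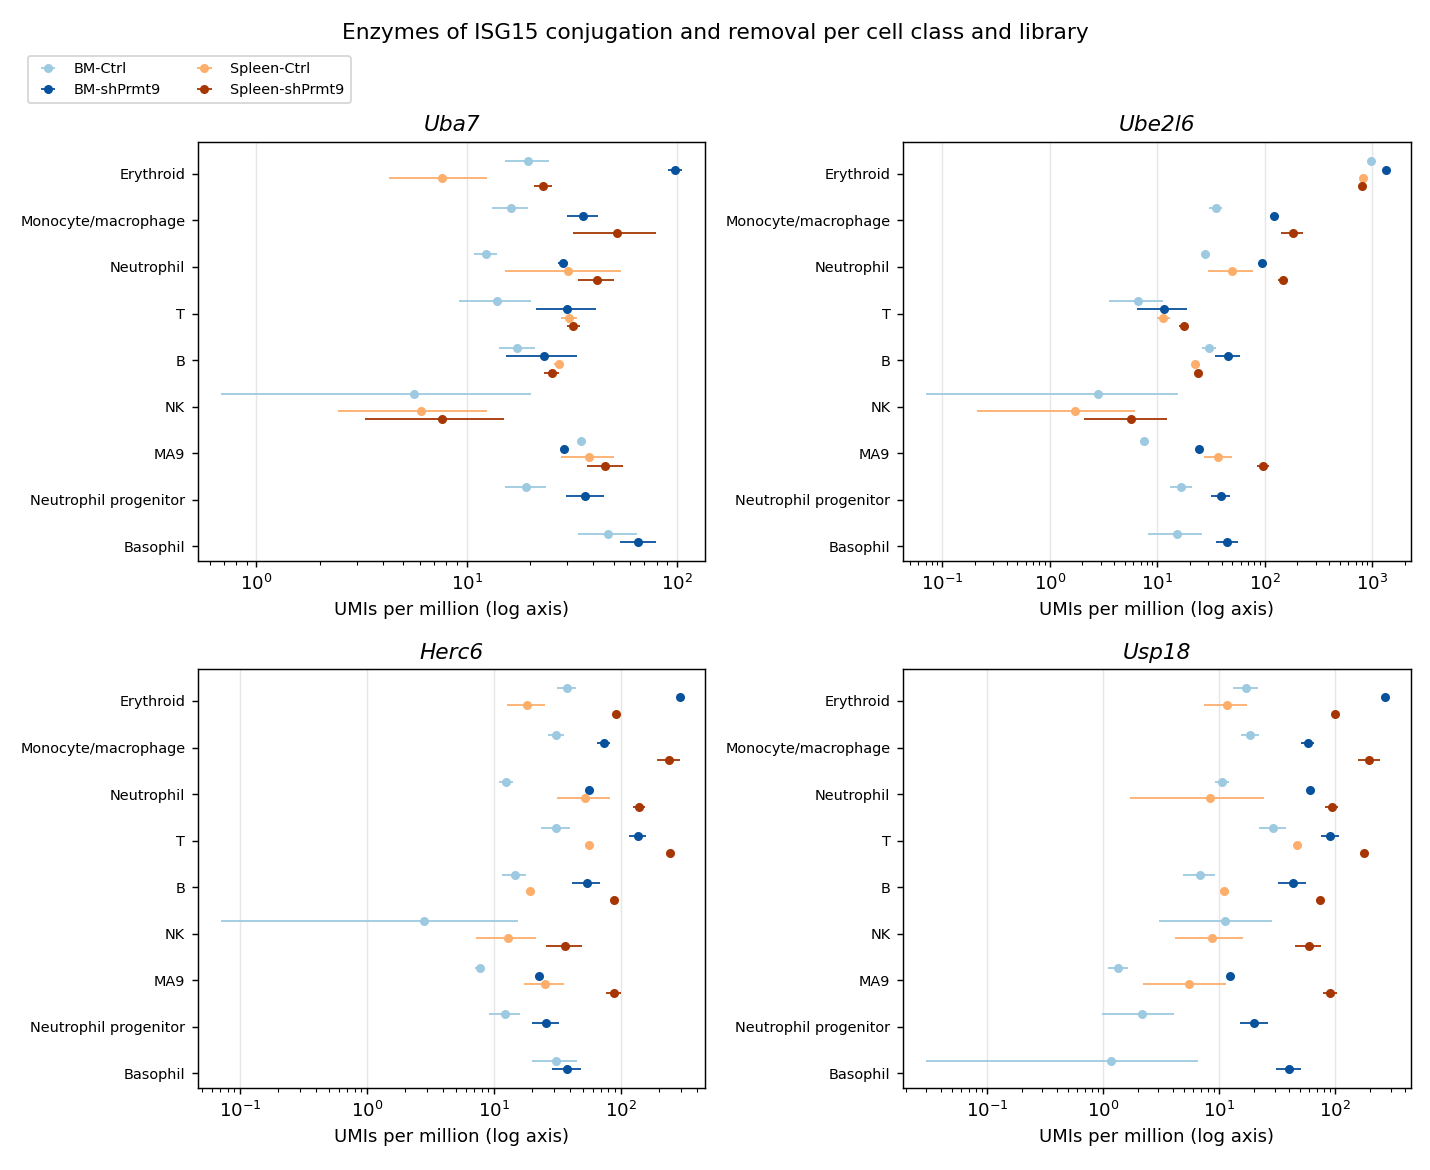
Uba7, Ube2l6, Herc6 and Usp18 in CPM (log axes that differ between panels) for classes with at least 20 cells, with 1 point per library and exact Poisson 95% bars. Plasmacytoid dendritic cells, megakaryocytes and plasma cells are not drawn. Ube2l6 is highest in erythroid cells (801 to 1359), and the Uba7 points of splenic T and B cells lie close together.

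Over all genes and classes, 70 pairs of a member and a class were formed, 68 of them with at least 20 UMIs in the 2 libraries together. Of these, 53 were at least 2-fold higher in shPrmt9 (32 of 40 in marrow and 21 of 28 in spleen) and 0 at least 2-fold lower. The intervals of 57 lay above 1. These counts have to be read against all genes of each class. In marrow, 4 of 5 members were called higher in MA9-gated cells, where 12.6% of all genes tested were. The members called were 4 of 5 in neutrophil progenitors (all genes 6.26%), 5 of 5 in neutrophils (3.35%), 5 of 5 in monocyte/macrophages (7.16%), 4 of 5 in T cells (4.21%), 3 of 5 in B cells (4.61%) and 3 of 5 in basophils (5.48%). In marrow erythroid cells 4 of 5 were called, but there 39.1% of all genes were, and the median log2 ratio of all genes was 0.75 against 2.50 for the members.

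In spleen the counts were of the same kind. The members called higher were 4 of 5 in MA9-gated cells (all genes 12.0%), 4 of 5 in neutrophils (8.38%), 3 of 5 in T cells (4.58%), 3 of 5 in B cells (4.47%) and 4 of 5 in erythroid cells (6.25%). In NK cells 3 members had enough UMIs and all 3 were called (10.3%). Uba7 (7 and 8 UMIs) and Ube2l6 (2 and 6 UMIs) were too low there to be called. The members' median log2 ratio was between 1.57 and 2.33 in the 6 splenic classes, where that of all genes was between -0.91 and 0.15.

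**Figure D4:**
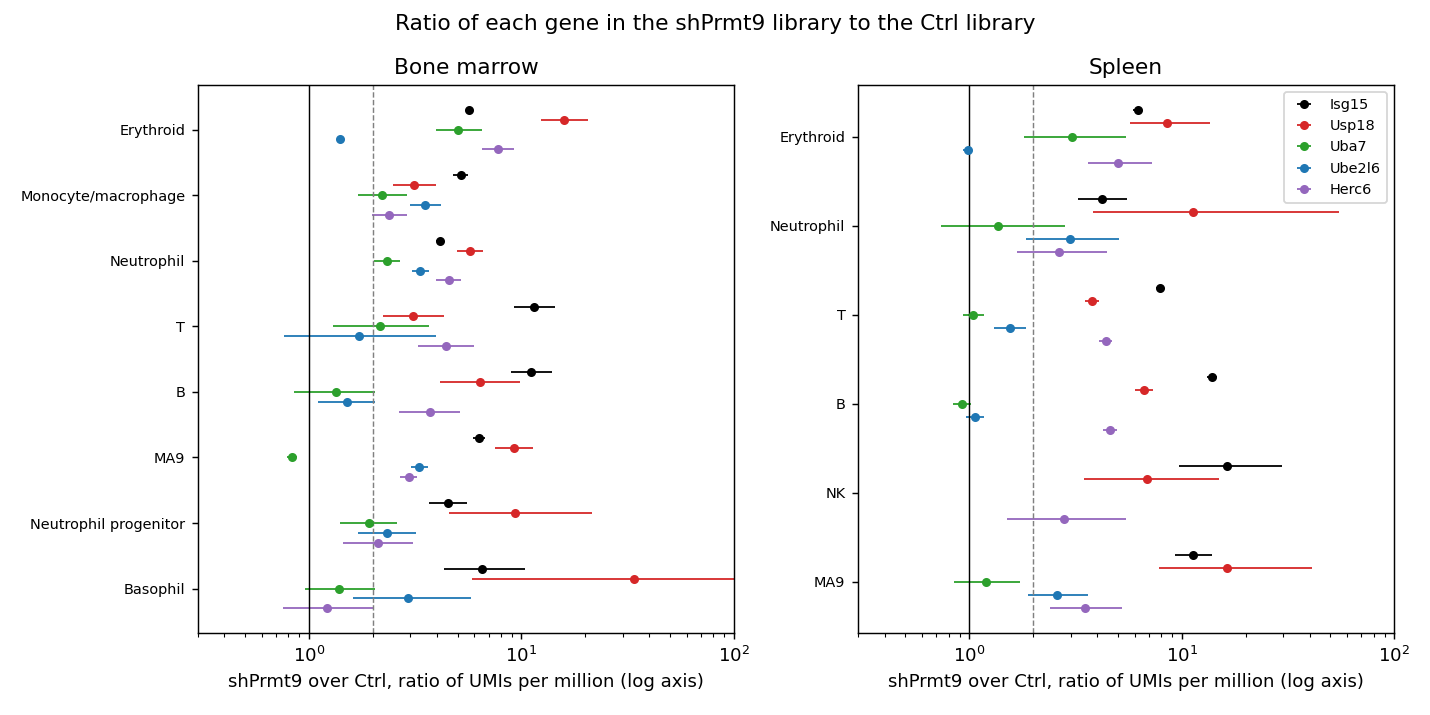
Ratio of each gene's CPM in the shPrmt9 library over the Ctrl library (log axis) by class and tissue, with exact conditional 95% bars; the solid line marks 1, the dashed line 2, and the bar of Usp18 in basophils runs to 1357, past the axis. Isg15 and Usp18 lie beyond 2 in every class, while Uba7 lies near 1 and Ube2l6 below 2 in splenic T and B cells.

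The makeup of the set differed between the groups as well. Isg15 was 22.4% of the 5 genes' UMIs in marrow MA9-gated cells of BM-Ctrl and 51.2% in BM-shPrmt9, while Uba7 went from 52.6% to 15.9%. In erythroid cells Isg15 was 48.7% and 73.5% in marrow and 50.1% and 84.0% in spleen, while Ube2l6 was 47.6% and 17.9%, and 47.7% and 12.6%. In T cells Isg15 was 36.9% and 67.0% in marrow and 53.5% and 73.6% in spleen, and in B cells 22.2% and 57.0%, and 27.6% and 66.8%. In marrow neutrophils, where all 5 genes were at least 2-fold higher, the part of Isg15 was close in the groups, at 65.2% and 67.2%.

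**Figure D5:**
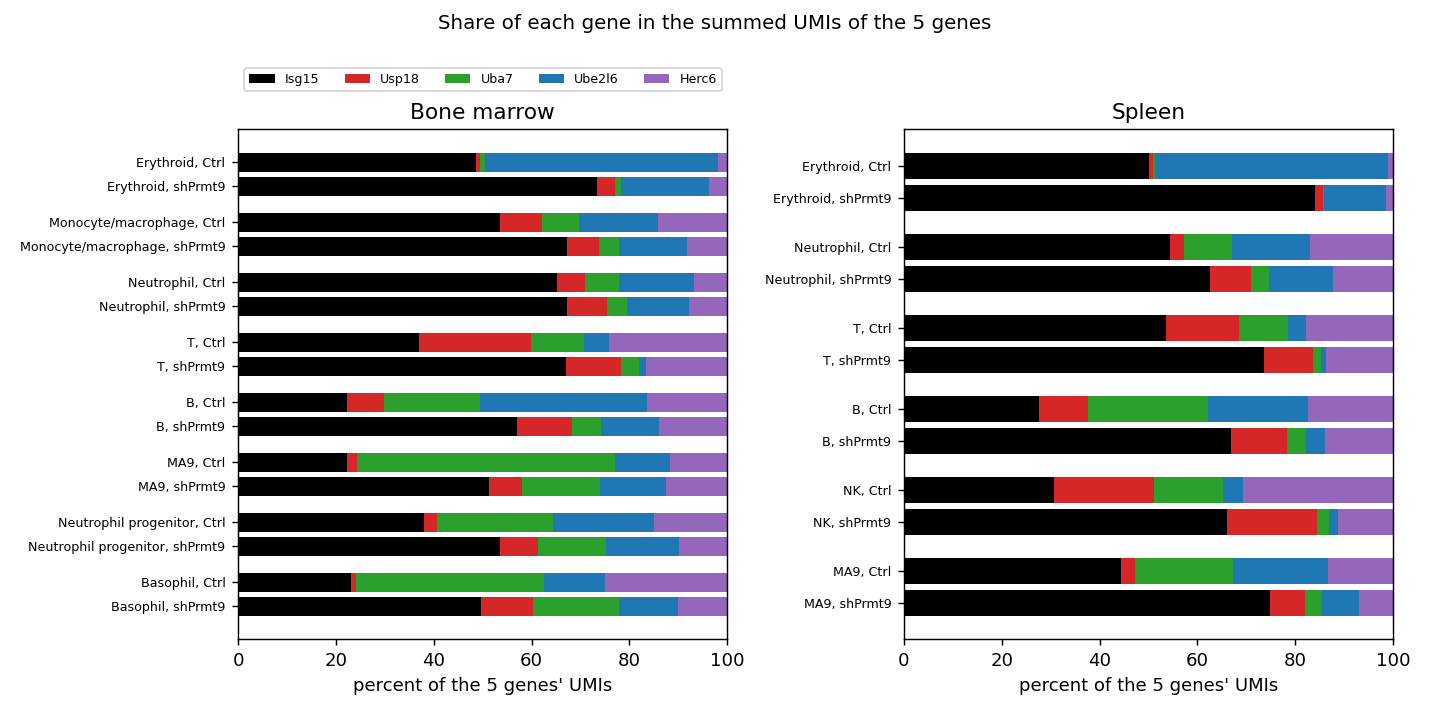
Share of each gene in the summed UMIs of the 5 genes, in percent, for the compared classes of marrow and spleen in the Ctrl and shPrmt9 libraries. Isg15 takes 84.0% of the bar in splenic erythroid cells of Spleen-shPrmt9, and Uba7 takes 52.6% in MA9-gated cells of BM-Ctrl.

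Genes that act beside the set were counted in a list of 12 that holds the alternative ligases Trim25 and Arih1, the subunits of LFA-1 (Itgal and Itgb2), and interferon receptor and signaling genes. The share of all genes called in each class stands in brackets. At least 2-fold higher in shPrmt9 were 2 of 12 in marrow MA9-gated cells (12.6%), 3 in each of neutrophil progenitors (6.26%), neutrophils (3.35%), T cells (4.21%) and B cells (4.61%), 2 in monocyte/macrophages (7.16%) and in basophils (5.48%), and 8 of the 11 tested in erythroid cells (39.1%), with 0 lower in marrow. In spleen the counts were 4 in MA9-gated cells (12.0%), 2 in neutrophils (8.38%), 1 in T cells (4.58%), 6 in NK cells (10.3%), 1 in B cells (4.47%) and 3 in erythroid cells (6.25%). The counts in marrow MA9-gated cells and in splenic T and B cells were near those shares. Splenic neutrophils and T cells had 1 lower each and splenic erythroid cells 2. Irf7, a transcription factor that drives interferon genes, was higher in all 8 marrow classes (4.25 to 9.95 times) and all 6 splenic classes (3.40 to 23.3 times).

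Other genes of the list differed less evenly. Stat2, a transcription factor of the type I interferon pathway, was at least 2-fold higher in 5 of 8 marrow classes and 3 of 6 splenic classes. Irf9, its DNA-binding partner, was higher in marrow erythroid cells (3.57), splenic NK cells (4.19) and splenic erythroid cells (2.93). The ligase Trim25 was higher in MA9-gated and erythroid cells of marrow (2.00 and 4.89) and in MA9-gated and NK cells of spleen (2.37 and 2.51). Ifnar1 was higher in 0 of 8 marrow classes and 1 of 6 splenic classes.

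Outside marrow erythroid cells, few enzymes of other ubiquitin-like modifiers were at least 2-fold higher in shPrmt9. Of 28 such genes (E1, E2 and HERC relatives of the members, deubiquitinases and genes of modifiers such as SUMO and NEDD8), 0 were 2-fold apart either way in marrow MA9-gated cells (12.6% of all genes were higher), with a median log2 ratio of -0.02. In each other marrow class except erythroid cells 0 or 1 was higher, where 3.35% to 7.16% of all genes were, and 7 of 27 in erythroid cells, where 39.1% were. In spleen, 0 to 3 were higher per class, where 4.47% to 12.0% of all genes were, and up to 7 lower (erythroid cells). The list's median in erythroid cells was 0.61 in marrow and -0.58 in spleen, in the direction of all genes there.

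Several of the genes whose levels lay closest to those of Isg15 (Rsad2, Cmpk2, Isg20, Ifit1 and Irf7) are known interferon-stimulated genes. Pearson r of log2(CPM + 1) was taken between Isg15 and 10905 genes over the 27 combinations of class and library with at least 50 cells. These points share libraries, free RNA and hosts, and r describes them only. Highest were Rsad2 (0.943), Cmpk2 (0.840), Isg20 (0.832), Ifit1 (0.824), Ccrl2 (0.812), Cpeb4 (0.797), AW011738 (0.780), Irf7 (0.753), Pttg1 (0.748) and Ubap1 (0.739). Among the members, Herc6 was at rank 6 (0.811), Usp18 at 7 (0.807), Ube2l6 at 10 (0.760) and Uba7 at 368 (0.324).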

How the data were processed

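The authors made UMI counts per gene and cell with Cell Ranger (6.0.2 per the file headers, 6.1.1 in the submitters' processing notes) on mm10, and deposited filtered matrices of raw counts, from v2 3′ libraries. Barcodes under 200 genes or over 20% mitochondrial UMIs were dropped, and the highest Scrublet scores (0.8% of cells per 1000 cells, 558 to 1011 cells per library) were removed, since the tool's own threshold called 0 to 183. A cell joined a class when it had at least 3 of its markers with a UMI, a score of at least 0.1 and no rival class above 0.5 of its score. Neutrophil progenitors and plasma cells were no rivals of MA9, and plasma cells none of B cells or monocyte/macrophages. Likewise exempt were plasma cells and conventional for plasmacytoid dendritic cells, neutrophil progenitors and MA9 for basophils, and MA9 for megakaryocytes. Neutrophil progenitors also needed an MA9 score under 0.1. Cells passing more than 1 gate joined no class. Cells joining no class (390 to 1631 per library) were left out of classes. Counts were summed per class and library and divided by the class's total UMIs and scaled to 1000000 (CPM). Intervals were exact Poisson and exact conditional binomial at 95%. A gene was called at 2-fold with at least 20 UMIs over the 2 libraries. The genes named were the 5 members, the 10 other genes with the highest r, and 2 lists. Members, lists and markers were chosen with earlier results of these data known. No test between groups was run. Thinning used 2000 UMIs per cell. The ratios and their intervals were tried on simulated Poisson counts of T cells. These hold no spread between cells or mice, so they bear on the calculation only. Python 3.11.15, numpy 2.4.6, scipy 1.17.1, scanpy 1.11.5 and leidenalg 0.10.2 were used, with edgeR 4.0.16 for TMM factors alone. Values of some listed genes are not reported here.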

Additional observations from a re-analysis of the deposited data

Results flagged for a closer look

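In 3 cases the ratio of shPrmt9 over Ctrl lay on opposite sides of 1 in marrow and spleen. The difference between the tissues was not tested in any of them, and the tissues came from different hosts. Uba7 in B cells had a ratio of 1.33 in marrow and 0.924 in spleen, Uba7 in MA9-gated cells 0.834 and 1.20, and Ube2l6 in erythroid cells 1.40 and 0.982. Globin left out of the total brought the erythroid ratios of Ube2l6 to 1.06 and 1.35, both above 1.

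Cells that joined no class also held more Isg15 in the shPrmt9 libraries than in the Ctrl libraries. Their level was 39.9 CPM in BM-Ctrl and 422 in BM-shPrmt9, a ratio of 10.6, and 123 and 920.5 in spleen, a ratio of 7.46.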

How the results depend on the processing

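No paired analysis was possible because each group had 1 library and the labels carry no replicate numbers; for the same reason no replicate could be left out. The counts of pairs of a member and a class at least 2-fold higher were 32 in marrow and 21 in spleen. They ran from 30 to 35 and from 20 to 22 under the other clustering, gate, filter, doublet, scaling, thresholds and free-RNA settings, with the exception of taking off the lowest class with at least 20 cells, which gave 17 in marrow and 15 in spleen. Of the 53 pairs called, 48 had a value in every alternative, and 29 of these stayed at least 2-fold in all of them. Taking off the lowest class kept 32 of the 48 past 2-fold, and the other 5 had no value under it. Without that setting, 46 of the 53 stayed past 2-fold wherever they had a value. Under that setting, ratios fell below 1 in marrow for Isg15 in B cells (0) and neutrophil progenitors (0.0785), Herc6 in neutrophils (0.135) and neutrophil progenitors (0), Uba7 in neutrophils (0) and T cells (0.0339) and Usp18 in neutrophil progenitors (0), and in spleen for Herc6 and Usp18 in NK cells (0 for both). A value of 0 arises by construction where the class, or one at its level, is itself the lowest in shPrmt9. Dropping below 2 elsewhere were Herc6 (1.71) and Uba7 (1.95) in marrow monocyte/macrophages with 1 more marker in the gate, Herc6 in splenic neutrophils (1.21 with Leiden clusters, 1.25 as a mean over cells), Uba7 in marrow T cells (1.998 as a mean over cells), Ube2l6 in neutrophil progenitors (1.93 with doublets kept, 1.16 as a mean over cells) and Herc6 there (1.03 with the lowest class of at least 5 cells taken off, 1.67 with globin- and S100a8/9-carried RNA taken off, both chosen after seeing the data), and Ube2l6 in splenic MA9-gated cells (1.62 with that carried RNA taken off). The cause was not tested. TMM factors shifted the log2 ratios by -0.66 in marrow erythroid cells, 1.16 in splenic erythroid cells and 0.32 and 0.35 in neutrophils of marrow and spleen. The Uba7 ratio of marrow MA9-gated cells was 0.733 with the lowest class taken off and between 0.786 and 0.954 over the other 10 alternatives, and over the same 10 that of erythroid Ube2l6 ran from 0.890 to 1.55 in marrow and from 0.980 to 2.20 in spleen.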

Other observations

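Dendritic cells were too few to compare. The 8 conventional dendritic cells of BM-Ctrl held Isg15 at 476, Herc6 at 216 and Usp18 at 80.9 CPM. Plasmacytoid dendritic cells held Isg15 at 114 in BM-Ctrl (87 cells), 292 in BM-shPrmt9 (14 cells) and 271 in Spleen-Ctrl (4 cells). Usp18 in them stood at 46.3, 56.1 and 209, respectively.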
